A study of Homo sapiens with 6 samples.

Results

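Zinc finger genes of human chromosome 19 were followed through the induction of neural crest from embryonic stem cells. Members were every gene of the deposited table whose symbol consists of ZNF, a number and at most 1 further letter and whose locus lies on chromosome 19. This choice by name and place used no expression value, and it gave 248 of the 23284 genes in the table. Poly-adenylated RNA had been sequenced from 6 libraries of WA01 (H1), an established line of human embryonic stem cells with a wildtype genotype. The 3 groups of 2 libraries were embryonic stem cells (ES, day 0), pre-neural crest cells (preNC, day 3) and neural crest cells (NC, day 5). The same culture settings are listed for all 6 libraries, day 0 included: seeding at 20000 cells per cm2, 3 µM CHIR99021, which blocks the kinase GSK3 and so turns on WNT signalling, and 10 µM of the ROCK inhibitor Y-27632. The labels therefore do not say which cells received these agents, nor whether both libraries of a group stem from different cultures. The deposited p-values may thus measure technical spread only. Each gene has 1 FPKM value per group, that is, fragments scaled to transcript length and to the size of the library, so levels may be compared between genes per length. The libraries' depth and the spread within a group are unknown. These are bulk samples, in which more cells of a kind and more RNA per cell cannot be told apart.

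Most C2H2 zinc finger proteins of this chromosome are KRAB zinc finger proteins. Their tandem fingers, each folded around a zinc ion held by a pair of cysteines and a pair of histidines, read DNA, and many bind the remnants of transposable elements. The KRAB domain recruits TRIM28 (KAP1), which brings the histone methyltransferase SETDB1, HP1 proteins and DNA methylation to the bound site. The genes lie in tandem clusters that arose by duplication, and the system is active in pluripotent cells, where it silences retroelements.

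A stretch of coding sequence shows what makes these genes alike. Below is 1 finger of each of 4 members, read from GENCODE transcripts by a search for the spacing of the cysteines and histidines, with the codons of these 4 residues in capitals. ZNF146 is the member of highest FPKM on each day. Between day 0 and day 5, on the log2 scale of FPKM plus 1, ZNF428 rose most of all members, ZNF709 rose most of the KRAB members and ZNF296 fell most. The units of ZNF709, ZNF146 and ZNF296 take 84 bases from the opening cysteine to the next finger.
ZNF709, finger 10 of 19: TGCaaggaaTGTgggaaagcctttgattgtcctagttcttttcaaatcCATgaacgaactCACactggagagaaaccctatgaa
ZNF146, finger 6 of 10: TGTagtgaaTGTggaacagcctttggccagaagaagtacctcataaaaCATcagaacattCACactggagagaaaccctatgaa
ZNF428, finger 1 of 1: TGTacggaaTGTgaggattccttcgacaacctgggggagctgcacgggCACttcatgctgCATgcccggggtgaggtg
ZNF296, finger 4 of 6: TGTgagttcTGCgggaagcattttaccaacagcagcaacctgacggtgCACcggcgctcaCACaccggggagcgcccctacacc
By the same search, 240 members had a complete coding sequence, with a median of 12 fingers. ZNF208 had the most, with 36, followed by ZNF729 with 34 and ZNF91 with 31. A KRAB pattern was found in 205 of the 240 and was absent from 35. The search was not checked against annotated domains, so members without the pattern may still hold a KRAB domain. The remaining 8 members, ZNF833P and ZNF702P among them, are transcribed pseudogenes in RefSeq.

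The sequences just upstream of the start were read for 211 members from RefSeq entries (GRCh38.p14), of 250 bases each. Shown are those of the 3 members that rose most and the 3 that fell most between day 0 and day 5 on that scale. Capitals mark matches, on either strand, to TATAAA, which is the core of a TATA box, to CCAAT, which names its own box, to GGGCGG, which is known as the GC box, to CCGGAAG, which ETS factors bind, and to AAGATGG, which YY1 binds.
ZNF428 (chr19:43619630-43619879, minus strand): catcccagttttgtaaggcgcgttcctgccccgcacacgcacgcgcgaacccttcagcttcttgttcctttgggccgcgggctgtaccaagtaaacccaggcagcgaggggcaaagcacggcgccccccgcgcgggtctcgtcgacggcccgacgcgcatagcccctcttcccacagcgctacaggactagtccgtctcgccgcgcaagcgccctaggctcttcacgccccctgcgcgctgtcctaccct
ZNF709 (chr19:12484817-12485066, minus strand): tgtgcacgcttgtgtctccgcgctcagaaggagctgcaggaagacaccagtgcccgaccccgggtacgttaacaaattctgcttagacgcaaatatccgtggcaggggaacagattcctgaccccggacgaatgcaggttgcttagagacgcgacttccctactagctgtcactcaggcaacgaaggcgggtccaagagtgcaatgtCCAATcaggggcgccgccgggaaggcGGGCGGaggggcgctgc
ZNF584 (chr19:58408399-58408648, plus strand): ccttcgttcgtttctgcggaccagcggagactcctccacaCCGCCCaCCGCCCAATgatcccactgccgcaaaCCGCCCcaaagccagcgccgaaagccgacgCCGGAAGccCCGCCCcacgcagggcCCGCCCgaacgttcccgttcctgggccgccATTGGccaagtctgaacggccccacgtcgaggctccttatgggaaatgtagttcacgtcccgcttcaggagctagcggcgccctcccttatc
ZNF296 (chr19:45076479-45076728, minus strand): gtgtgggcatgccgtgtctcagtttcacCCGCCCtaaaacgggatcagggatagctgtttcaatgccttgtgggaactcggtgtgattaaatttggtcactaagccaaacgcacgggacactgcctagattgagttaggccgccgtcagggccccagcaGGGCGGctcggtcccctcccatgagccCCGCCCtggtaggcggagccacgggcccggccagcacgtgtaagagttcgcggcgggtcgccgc
ZNF525 (chr19:53365455-53365704, plus strand): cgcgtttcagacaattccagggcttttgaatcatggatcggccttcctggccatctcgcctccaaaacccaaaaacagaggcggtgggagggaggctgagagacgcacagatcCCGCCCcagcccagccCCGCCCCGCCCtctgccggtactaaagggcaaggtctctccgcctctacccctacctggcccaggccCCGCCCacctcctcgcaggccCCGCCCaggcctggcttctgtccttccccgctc
ZNF90 (chr19:20077750-20077999, plus strand): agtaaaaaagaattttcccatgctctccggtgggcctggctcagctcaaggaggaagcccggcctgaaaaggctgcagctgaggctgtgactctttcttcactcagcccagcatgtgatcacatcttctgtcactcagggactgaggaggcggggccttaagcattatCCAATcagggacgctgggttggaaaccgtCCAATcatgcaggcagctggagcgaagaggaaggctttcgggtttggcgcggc
In the stretch of ZNF584, a GC box and a CCAAT box share bases. Among the 211 member promoters, 31.3% held the ETS word, against 11.8% of 15843 promoters of protein-coding genes in the same table. The CCAAT box was in 50.7% of members and 34.5% of all, and the GC box in 64.9% and 56.0%. TATAAA was in 1.90% of members and 9.23% of all, and the YY1 word in 4.74% and 3.35%. Member promoters held a median of 16 CpG sites and all promoters 17. Members with the ETS word counted 14 called higher and 1 called lower from day 0 to day 5 of 64 tested, and those without it 19 and 7 of 140. Over all genes tested, 12.2% were called higher and 14.7% lower. Members with and without the word were not matched for level or place, and their difference was not tested. The median log2 ratio of FPKM plus 1 was 0.34 with the word and 0.27 without. A match to letters describes the sequence and does not show a binding site.

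Most markers of the labelled cell types changed between the days. POU5F1, the core pluripotency factor, had 1087 FPKM at day 0, then 85.3 and 9.40. By day 5, 5 of 7 tested embryonic stem cell markers had been called lower than on day 0, and 7 of 10 neural crest markers higher, among them PAX3 (0.253, 3.36 and 39.9) and TFAP2A (0.108, 1.11 and 11.8). The other 3 neural crest markers were already present on day 0 and were not called on day 5 against day 0. FOXD3 had 17.9, 0.876 and 15.4, ETS1 7.27, 1.11 and 6.14, and NGFR 7.58, 18.5 and 11.7. SOX10 was called higher, but stood at 1.82 on day 0 (then 3.87 and 6.33). SOX2 and LIN28A were still at 129 and 419 on day 5. Markers of other lineages moved with the days as well. The FPKM sum of 3 neural progenitor markers was 1.66, 103 and 18.02 over the 3 days. DBX1 (0.282, 81.9 and 1.26) and SOX1 (0.985, 19.2 and 1.46) peaked on day 3, while PAX6 rose at each step (0.393, 1.86 and 15.3). For 5 mesendoderm markers the sum was 1.68, 1.86 and 0.748, with SOX17 listed at 0 on day 5. Its largest part was MIXL1 (1.28, 0.983 and 0.537), which was not called. T was called higher from day 0 to day 3 and lower from day 3 to day 5 (0.134, 0.777 and 0.0566). For 3 trophoblast markers the sum was 8.504, 1.79 and 0.455, mostly KRT7 (8.45, 1.79 and 0.336), with CGA listed at 0 on day 3. For 3 markers of nonneural ectoderm it was 125, 82.8 and 86.6. This last sum was nearly all KRT19 (125, 81.0 and 82.8), which was not called. DLX5 went from 0.0966 to 1.72 and 2.04 and was called higher on both days than on day 0, and GATA3 from 0.00952 to 0.108 and 1.84, called higher from day 3 to day 5. Their part in the changes of the zinc finger genes was not tested.

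The chromosome 19 zinc finger genes were expressed broadly and at modest levels. Their median FPKM was 3.05, 3.76 and 3.997 over days 0, 3 and 5, while the median over all genes of the table was 2.31, 2.24 and 2.31. An FPKM of at least 1 was reached by 203 members on day 0, 215 on day 3 and 222 on day 5, and one of at least 10 by 30, 37 and 36. ZNF146, a short protein made almost wholly of fingers, was highest on each day, at 70.1, 72.5 and 58.9. On day 0 it was followed by ZNF581 (61.6), ZNF787 (54.7), ZNF444 (36.2), ZNF358 (33.0) and ZNF580 (31.3), none of which carries the KRAB pattern. On day 5 ZNF428 had moved to the second place (49.7), ahead of ZNF358 (35.2), ZNF787 (32.3), ZNF581 (31.5), ZNF444 (31.5) and ZNF580 (30.5). The order among the last of these rests on small differences, which were not tested. ZNF121 came next on both days (27.8 and 28.3). ZNF579 (22.9), ZNF93 (19.8) and ZNF134 (19.3) completed the 10 highest of day 0, and ZNF253 (20.1) and ZNF579 (19.2) those of day 5. At the other end, 10 members had too little signal to be tested in any comparison. Among these were ZNF208 (0.0120, 0.0198 and 0.0233) and ZNF729 (0.0118, 0.00312 and 0.0109), the members with the most fingers, ZNF541, a germ cell gene (0.0610 on day 0), and ZNF536 (0.0345 on day 0). Another 237 members were tested in all 3 comparisons, and ZNF726 in those with day 5 only.

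Between day 0 and day 5 most members had a small upward ratio. The median log2 ratio of FPKM plus 1 was 0.31 over 238 tested members, against -0.01 over all 16409 genes tested and -0.28 over the other 981 tested genes of chromosome 19. ZNF genes of other chromosomes, 259 tested, had a median of 0.21. The ratio was above 0 for 179 of the 238 members. A gene is called here where its q in the authors' deposited table is below 0.05. By that rule 38 members were higher on day 5 and 10 lower, that is 15.97% and 4.20%. Over all genes tested, 12.2% were called higher and 14.7% lower. The other genes of the chromosome had 47 higher and 207 lower, and the ZNF genes of other chromosomes 46 higher and 12 lower. The members' share called higher was thus near the background, and their share called lower was under it. With a normal p taken from the deposited test statistic, 13 of the 238 members were called higher and 5 lower, against 7.54% and 11.4% of all genes tested. Under that p the members' share called higher was also below that of all genes. The 13 were ZNF382, ZNF417, ZNF428, ZNF441, ZNF460, ZNF491, ZNF529, ZNF584, ZNF587, ZNF702P, ZNF709, ZNF780A and ZNF781, and the 5 were ZNF296, ZNF525, ZNF581, ZNF787 and ZNF878. Scaling the groups without the 10 genes of highest FPKM moved the median of members to 0.42 and that of all genes tested to 0.11. The spread of the members was narrower than that of all genes tested, at the lower end only. The central 80% of members lay between -0.26 and 0.80, where all genes tested spanned -0.99 to 0.79. ZNF genes of other chromosomes spanned -0.43 to 0.87.

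**Figure D1:**
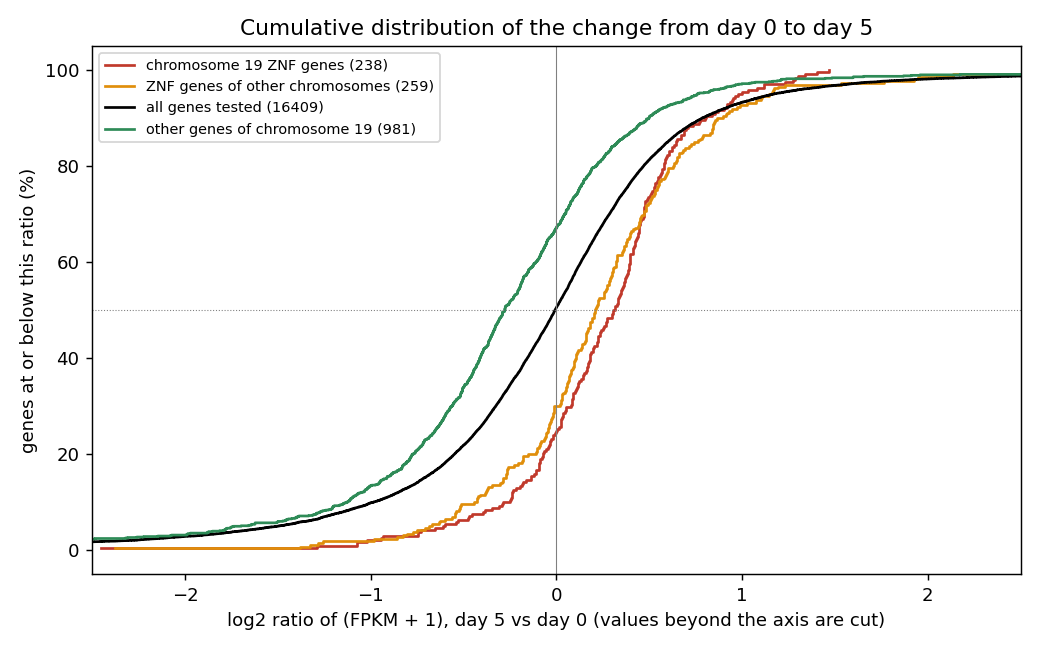
Cumulative share of genes (%) against the log2 ratio of FPKM plus 1 between day 5 and day 0, for 238 tested chromosome 19 ZNF genes (red), 259 ZNF genes of other chromosomes (orange), all 16409 genes tested (black) and the 981 other tested genes of chromosome 19 (green). The red curve crosses 50% at 0.31 and the green one at -0.28, and the central 80% of the red curve spans -0.26 to 0.80.

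The low share called lower was also seen within bins of expression level up to 10 FPKM. Among genes with a mean FPKM of 2 to 5 over both days, 15.8% of 95 members were called higher and 3.16% lower, against 16.7% and 16.6% of 2455 other genes. From 5 to 10 FPKM the members had 13.5% higher and 3.85% lower of 52, and other genes 14.8% and 13.7% of 2586. Above 10 FPKM the difference was smaller, with 12.1% higher and 9.09% lower of 33 members and 9.93% and 12.9% of 5186 other genes up to 50 FPKM.

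The median shift of members was larger in the earlier step. Scaled without the 10 genes of highest FPKM, it was 0.23 in that step and 0.17 in the later one. From day 0 to day 3, 188 of 237 tested members had a ratio above 0, with a median of 0.22 (all genes tested 0.03, other chromosome 19 genes -0.08). The ZNF genes of other chromosomes were near the members, with a median of 0.20 and 190 of 258 above 0. In that comparison 15 members were called higher and 5 lower, 6.33% and 2.11%, while 8.96% of all genes tested were called higher and 11.6% lower. From day 3 to day 5 the median was 0.06 (all genes -0.04, ZNF genes of other chromosomes 0.02), and 144 of 238 members were above 0. Only 5 members were called higher, 2.101%, and 2 lower, 0.840%, against 5.93% and 6.68% of all genes tested. The 3 comparisons share their groups, so they are not independent. Over the days in order, 118 of 237 members (49.8%) were higher at each step and 24 (10.1%) lower at each step, against 24.4% and 24.4% of all genes tested throughout. The ZNF genes of other chromosomes had 37.5% and 10.2%, so their share lower at each step was close to that of the members. In all, 54 of the 238 members tested in at least 1 comparison were called in at least 1, or 22.7%. This was below the 34.1% of all genes tested, while ZNF genes of other chromosomes had 26.6%.

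**Figure D2:**
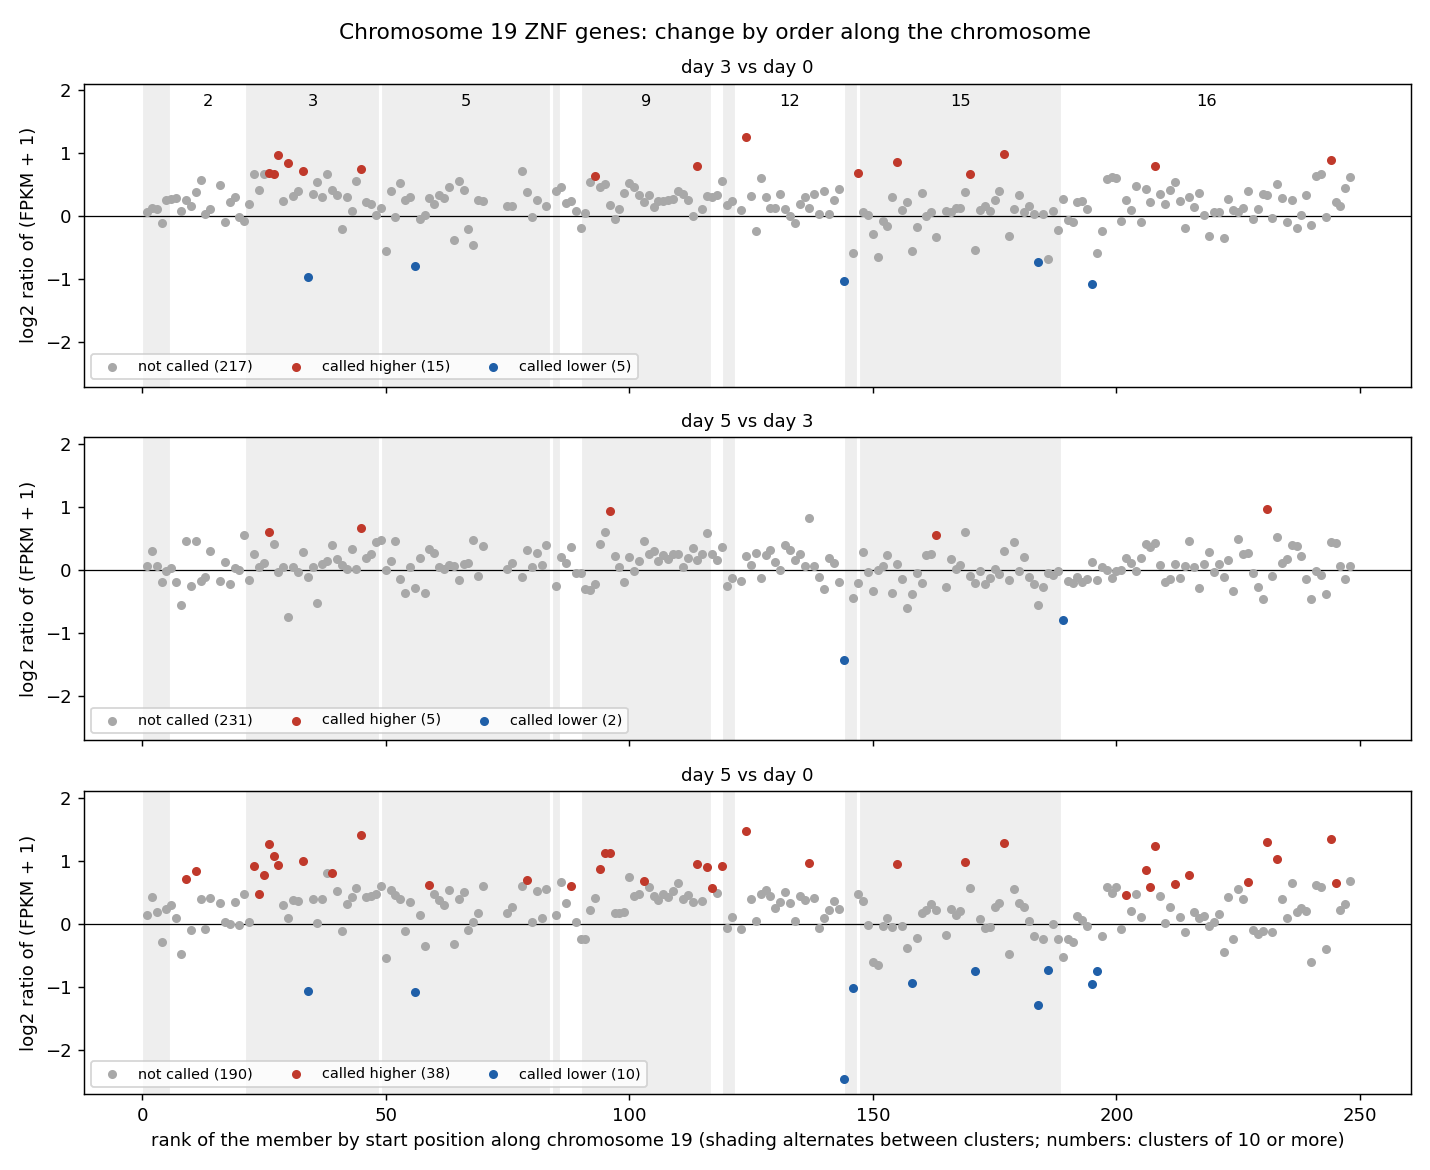
Log2 ratio of FPKM plus 1 for each tested member, by its rank along chromosome 19, in the 3 comparisons. Red and blue points are members called higher and lower, grey points are not called, and shading alternates between the 16 clusters. From day 0 to day 5, 38 red points are spread over most of the chromosome, and 4 of the 10 blue ones lie in cluster 15.

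Along the chromosome the members fell into 16 clusters when a new cluster was opened wherever neighbouring starts lay over 1 Mb apart (positions are hg19). The 7 clusters of at least 10 members held 227 of them. The numbers below follow this order from the short arm to the end of the long arm. Day 5 is compared with day 0 unless stated. For the counts called in each cluster, the shares over all genes tested were 12.2% higher and 14.7% lower.

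Cluster 3, on the short arm (11594242 to 12740676, 27 members), had the largest share of called members among the 7 large clusters, with 9 higher and 1 lower, and a median log2 ratio of FPKM plus 1 of 0.44. Of its 27 members 25 had a ratio above 0. ZNF441, a KRAB protein with 14 fingers, went from an FPKM of 0.184 on day 0 to 0.894 on day 3 and 1.86 on day 5. Its log2 ratio of FPKM was 3.34 ± 0.70, with the error that follows from the deposited test statistic after the ± sign here and below, which is a description and not a replicate error. ZNF709 stood at 0.624, 1.72 and 3.30 (log2 2.40 ± 0.58). Both were called higher at each step by the deposited q. Their calls from day 3 to day 5 were lost with q adjusted within that comparison (0.0605 for ZNF441 and 0.0565 for ZNF709) and with a normal p (adjusted 0.296 and 0.268). ZNF491, whose coding sequence holds 10 fingers and no KRAB pattern, went from 0.255 to 1.00 and 1.66, and ZNF433 from 1.23 to 2.66 and 3.46. ZNF440 (1.97, 4.81 and 4.69) had its whole rise by day 3. ZNF823 (1.33 to 2.98), ZNF627 (5.81 to 11.9), ZNF136 (3.13 to 6.20) and the pseudogene ZNF833P (0.329 to 0.845) were the other members called higher. ZNF69 was called higher on day 3 only (3.75, 7.55 and 4.08). The exception was ZNF878, the next member after ZNF433, which fell from 3.21 to 1.16 and 1.00 (log2 -1.68 ± 0.58). The 5 other tested genes within this span had a median of -0.41.

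Cluster 9 (36673187 to 38270230, 26 members) had 6 members called higher and 0 lower by the deposited Cuffdiff q (0 lower also at an unadjusted p below 0.05), and 25 of 26 ratios were above 0, with a median of 0.45. ZNF382 was nearly level to day 3 and then rose, at 0.975, 1.24 and 3.29, and was called from day 3 to day 5 (log2 1.41 ± 0.57), though not with a normal p (adjusted 0.0861). Its neighbour ZNF529, whose locus ends just before that of ZNF382 begins, went from 3.64 to 5.61 and 9.07 (log2 1.32 ± 0.47). ZNF260 (8.38, 11.9 and 16.2) consists of fingers without a KRAB pattern. ZNF781, with 3 fingers and listed as a transcribed pseudogene in RefSeq, rose mainly by day 3 (0.284, 1.23 and 1.49). ZNF568 (1.22 to 2.57) and ZNF573 (1.13 to 2.98) completed the 6. ZNF566 was called higher on day 3 only (2.49, 4.43 and 3.64). The member with the highest level of all, ZNF146, opens this cluster and was not called in any comparison (log2 -0.25 ± 0.38 from day 0 to day 5). Its locus overlaps another gene, so its value may hold reads of both.

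Cluster 5 (19779663 to 24312654, 34 members), which flanks the centromere and holds the primate-expanded members around ZNF91, had the highest median level of the 7 large clusters, at 6.40, 7.12 and 7.50 on the 3 days. Its members rose by a median of 0.35, but only 2 were called higher and 1 lower of 29 tested. ZNF91, which is known to repress SVA and L1 retroelements, went from 6.27 to 8.45 and 10.8 (log2 0.78 ± 0.43), and ZNF737 from 2.51 to 3.30 and 4.40. ZNF90 fell from 14.7 to 8.01 and 6.44 (log2 -1.19 ± 0.44). Between the well expressed members of this cluster lie 5 that could not be tested in any comparison, among them ZNF208, ZNF257 (0.139, 0.180 and 0.189) and ZNF99 (0.0326, 0.0398 and 0.0518).

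Cluster 15 (52074531 to 54083523, 41 members) had the lowest median of the 7 large clusters, 0.02, with 20 of 40 tested ratios above 0. Scaling without the 10 genes of highest FPKM moved these to 0.13 and 27 of 40, with the median still the lowest of the 7. By the deposited q, 3 members were called higher and 4 lower. With a normal p, ZNF525 (lower) and ZNF702P (higher) kept their calls, while ZNF836 (adjusted p 0.0531), ZNF600 (0.183), ZNF761 (0.262), ZNF83 (0.0524) and ZNF432 (0.0923) lost them. ZNF525 fell from 5.18 to 2.73 and 1.53 (log2 -1.76 ± 0.49), ZNF836 from 2.70 to 1.52 and 0.933, ZNF600 from 2.24 to 1.23 and 0.928, and ZNF761 from 8.73 to 5.05 and 4.87. ZNF761 overlaps another gene. In the same cluster ZNF83, with 14 fingers and no KRAB pattern, rose from 7.14 to 9.59 and 15.03 (log2 1.07 ± 0.40). ZNF432 went from 2.56 to 5.44 and 5.85 and the pseudogene ZNF702P from 1.57 to 4.08 and 5.27. ZNF611 was called higher on day 3 only (1.84, 3.50 and 3.20), and ZNF528 between day 3 and day 5 only (1.203, 0.752 and 1.57), a call lost with q adjusted within that comparison (0.0777). The 36 tested KRAB members of this cluster had 1 called higher and 4 lower, with a median of -0.02. The difference between clusters was not tested.

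**Figure D3:**
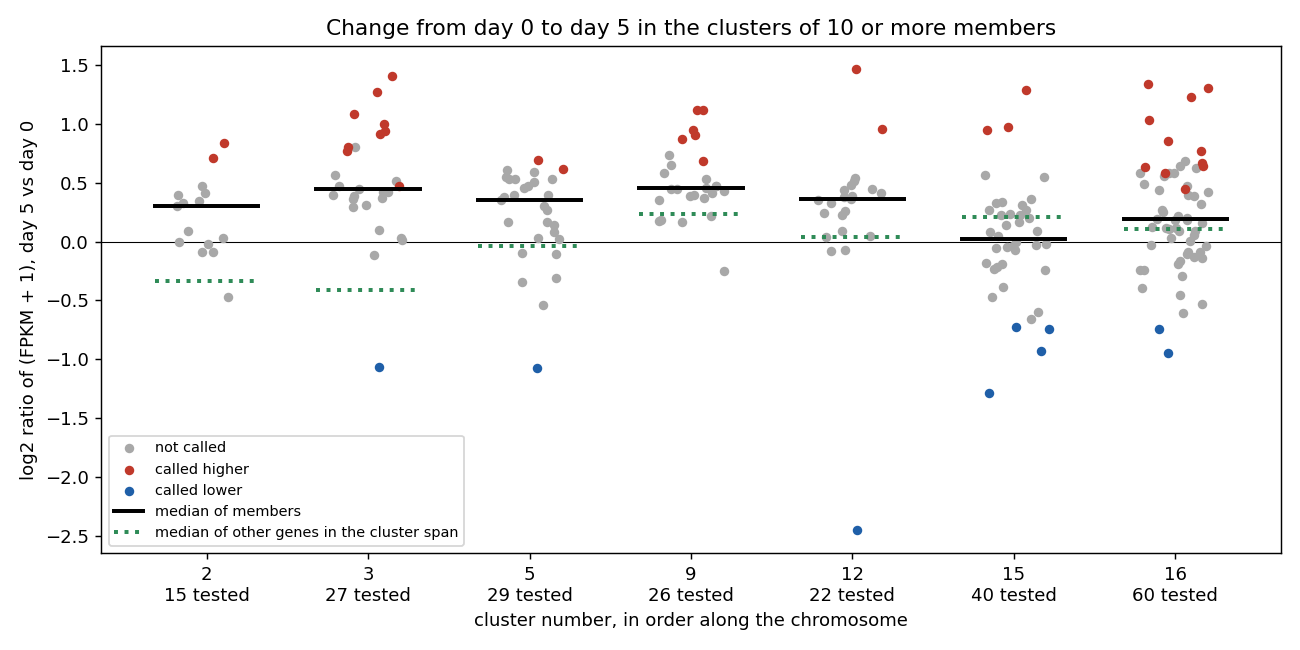
Log2 ratio of FPKM plus 1 between day 5 and day 0 for each tested member (points) of the 7 clusters with at least 10 members, with the median of members (black line) and of the other tested genes in the same span (dotted green line). Medians of members lie between 0.02 in cluster 15 and 0.45 in cluster 9, and cluster 15 is the one in which the members' median lies below that of their neighbours.

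Cluster 16, at the end of the long arm (55987699 to 58992597, 60 members), had 11 called higher and 2 lower, with a median of 0.19. All 11 were among its 44 KRAB members, whose median was 0.29. With a normal p, 4 of these 44 were called higher, against 7.54% of all genes tested. ZNF587 went from 5.34 to 7.03 and 14.6 (log2 1.46 ± 0.38), its step from day 3 to day 5 also being called (adjusted 0.0732 with a normal p), and its near neighbour ZNF417 from 3.98 to 6.10 and 9.18. ZNF584 stood at 1.57, 3.77 and 5.49 (log2 1.81 ± 0.48), ZNF460 at 1.91, 4.06 and 5.85 (log2 1.61 ± 0.50) and ZNF264 at 1.52, 2.41 and 3.57. ZNF776, ZNF548, ZNF805, ZNF772, ZNF471 and ZNF132 rose between 1.70-fold and 2.14-fold. The 15 members without a KRAB pattern had 0 called higher by the deposited Cuffdiff q (1 at an unadjusted p below 0.05, 0 with a normal p) and 2 lower, with a median of -0.19. The opening 9 members of the cluster, ZNF628 to ZNF444, all belong to that class. Among them ZNF581 fell from 61.6 to 28.9 and 31.5 (log2 -0.97 ± 0.30 from day 0 to day 5) and ZNF787 from 54.7 to 36.2 and 32.3 (log2 -0.76 ± 0.23). ZNF628 was called lower between day 3 and day 5 (5.63 to 2.82).

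**Figure D4:**
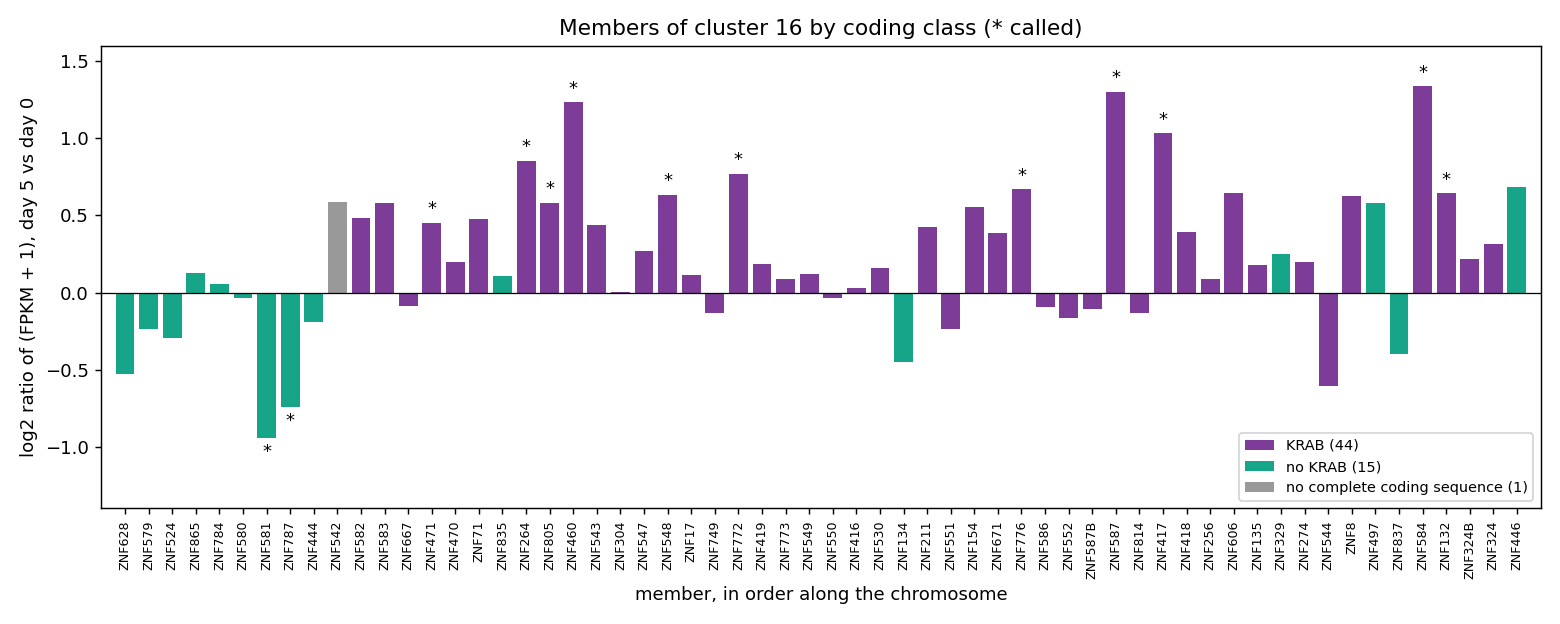
Log2 ratio of FPKM plus 1 between day 5 and day 0 for the 60 members of cluster 16 in order along the chromosome, coloured by coding class (44 KRAB, 15 without a KRAB pattern, 1 without a complete coding sequence); an asterisk marks called members. The 9 bars on the left have no KRAB pattern and include both members called lower, and all 11 members called higher are KRAB members. With a normal p, 4 KRAB members were called higher.

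In the remaining clusters the called members were few. Cluster 12 (44037340 to 45579688, 23 members) had 2 called higher and 1 lower. ZNF428, with 1 finger and no KRAB pattern, went from 17.3 to 42.6 and 49.7 (log2 1.52 ± 0.34), the largest rise of all members on the scale of FPKM plus 1, though its locus overlaps another gene. ZNF226 went from 7.25 to 8.03 and 15.05. ZNF296, whose mouse counterpart is known from pluripotent cells, closes this cluster and fell most of all members, from 10.8 to 4.79 and 1.15 (log2 -3.23 ± 0.42). It was called lower at each step. Cluster 2 had ZNF699 (0.722 to 2.08) and ZNF558 (6.04 to 10.5) called higher and 0 members lower. ZNF546 (0.429 to 1.12) and ZNF780A (3.05 to 6.64) rose in cluster 10 and ZNF599 (0.673 to 1.54) in cluster 8. ZNF114 in cluster 13 fell from 6.07 to 3.73 and 2.48 (log2 -1.29 ± 0.50). ZNF473 in cluster 14, a factor of histone mRNA processing, was called higher on day 3 only (3.09, 5.57 and 4.69).

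**Figure D5:**
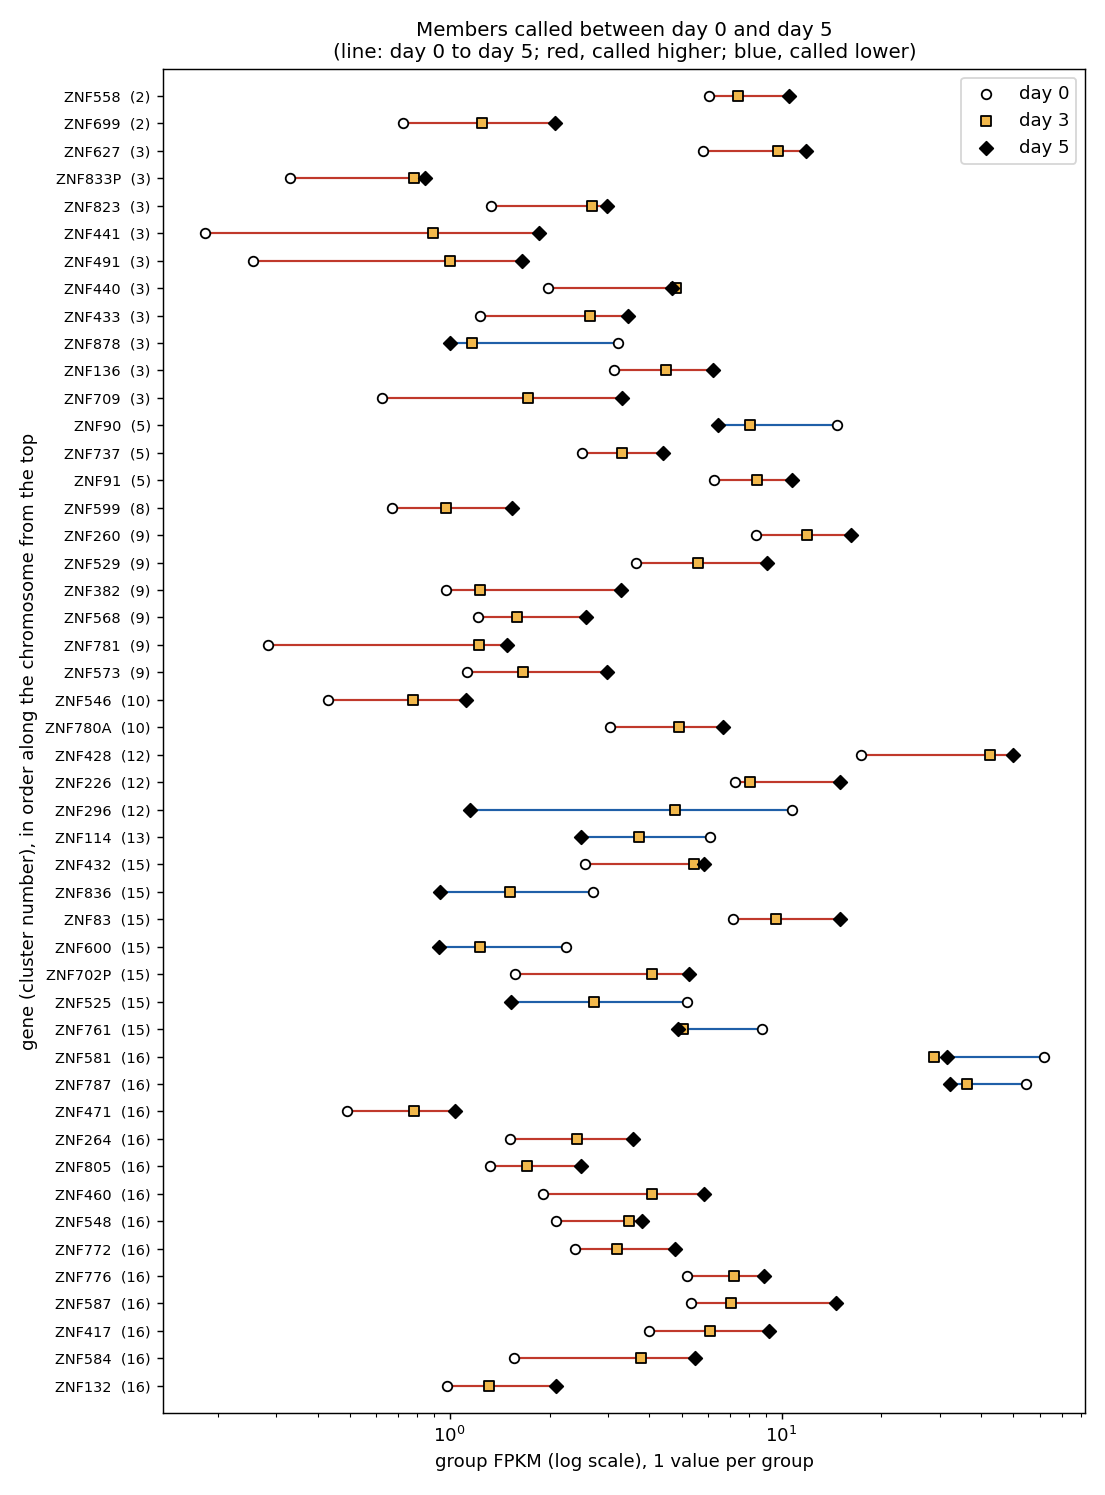
Group FPKM (log axis) on day 0 (open circles), day 3 (squares) and day 5 (diamonds) of the 48 members called between day 0 and day 5, in order along the chromosome from the top. Red lines join the 38 members called higher and blue lines the 10 called lower; ZNF441 has the largest fold (0.184 to 1.86) and ZNF296 the largest fall (10.8 to 1.15).

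Neighbours were only weakly alike. Across 223 pairs of adjacent tested members of a cluster, the log2 ratios between day 0 and day 5 had a Pearson r of 0.18 and a Spearman rho of 0.19, and 68.6% of pairs had the same sign. Adjacent genes of chromosome 19 that are no members had an r of 0.20 and a rho of 0.19 over 974 pairs, 61.7% of them with the same sign. The shares with the same sign also depend on the balance of signs. A ratio above 0 was seen in 75.2% of tested members and 32.8% of the other genes. Without pairs whose loci overlap, r stayed at 0.18 over 216 pairs of members and fell to 0.12 over 879 pairs of the other genes. The Spearman rho of these pairs was 0.18 for members and 0.16 for the other genes. These pairs share their libraries and are described without a test.

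By coding class over the whole chromosome, KRAB members had 31 called higher and 7 lower of 198 tested between day 0 and day 5, with a median log2 ratio of FPKM plus 1 of 0.35. Members without a KRAB pattern had 5 higher (15.6%) and 3 lower (9.38%) of 32, with a median of 0.04. The share called higher was thus alike in both classes. Of these 32, 15 lie in cluster 16, with a median of -0.19. In clusters 3 and 9 those without the pattern (2 and 4 tested) had medians of 0.56 and 0.81, and KRAB members 0.44 and 0.45. In clusters 2 and 12 (3 and 4 tested) they had 0.03 and 0.08, and KRAB members 0.34 and 0.37. In cluster 15 the only such member, ZNF83, had 0.98, and KRAB members -0.02. Levels differed between these classes as well, with a median FPKM on day 0 of 2.75 for KRAB members and 6.12 for members without the pattern. Members with 13 or more fingers had 22 higher and 5 lower of 109 (20.2% and 4.59%). Those with 8 to 12 fingers had 12 and 1 of 90 (13.3% and 1.11%). Those with fewer than 8 had 2 and 4 of 31 (6.45% and 12.9%). These classes overlap and differ in level and place, and the differences between them were not tested.

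Members known to bind retroelements or their own gene class did not move as 1 group. Of 8 listed, 7 were tested, and besides ZNF91 none was called between day 0 and day 5. ZNF93, known to repress L1 elements, stood at 19.8, 23.9 and 18.3 (log2 -0.12 ± 0.41). ZNF649 had 14.1, 11.4 and 8.93, ZNF765 3.03, 3.14 and 2.43, and ZNF808 2.26, 2.42 and 2.84. ZNF274, which recruits SETDB1 to the ends of zinc finger genes, had 11.97, 15.4 and 13.9. ZNF534 stayed at or under 0.0805 and could not be tested.

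Of 31 listed and tested corepressor genes, through which KRAB zinc finger proteins act, 3 were called higher and 2 lower between day 0 and day 5. These shares, 9.68% and 6.45%, compare with 12.2% and 14.7% of all genes tested, and the median was 0.05 (all genes -0.01). TRIM28 had 322, 312 and 221 FPKM over the 3 days, and the authors' deposited table lists a q of 0.199 for day 5 against day 0. SETDB1 had 12.7, 13.8 and 13.3. The HP1 gene CBX5 rose from 33.0 to 62.9 and 69.8, the NuRD remodeller CHD3 from 4.73 to 10.6 and 8.56, and UHRF1, a cofactor of maintenance methylation, from 24.3 to 51.6 and 40.1. DNMT3B, a de novo DNA methyltransferase, fell from 315 to 102 and 31.99, called at each step. TRIM24 fell from 73.1 to 42.7 by day 5. From day 0 to day 3, 3 of the list were called higher and 1 lower, and from day 3 to day 5 PIAS1, a SUMO ligase, was higher (12.7 to 21.7) and DNMT3B lower.

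Some members are uncertain because they share sequence or place with others. In 11 members, over 20% of the stretches of 50 bases in the transcripts also occur in another zinc finger gene, with the largest share in ZNF320 (93.4%, mostly with ZNF468). Of these 11 only ZNF417 was called, as higher (37.7% shared, mostly with ZNF587). ZNF587 shared 19.7%, so the rises of both may hold reads of either. The loci of 23 members overlap that of another gene. No source used here says whether counting used strand.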

How the data were processed

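Tools named in the submitters' processing notes are TopHat2 2.0.10 (also listed as TopHat) and Cuffdiff 2.1.1, with the build hg19. For annotation, strand and read length the entry is: not given in the sources used here. The authors deposited 1 table, of 69852 rows, which holds each of 23284 genes in 3 comparisons. Per the file headers, its columns give the FPKM of each group, a test statistic, used here as a score, and a p-value and q-value. That q could be recomputed from the p by Benjamini-Hochberg over 48572 tested rows, all comparisons together.

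Genes with status OK were counted as tested. Single genes are given as log2 ratios of the authors' deposited FPKM, and sets as log2 of FPKM plus 1, which understates changes of low genes. The implied standard error is the log2 ratio divided by the test statistic. Start positions were raised by 1 to count from 1. Fingers, the KRAB pattern and shared stretches of 50 bases came from GENCODE v29 transcripts and coding sequences, matched by symbol for 248 members, 4 of them under a newer symbol in RefSeq. Promoters are RefSeq entries of GRCh38.p14, and where a symbol has several starts the first listed was used. The code for the Benjamini-Hochberg adjustment and for clusters was tested on simulated data with Python 3.11.15 and pandas 2.3.3. Large changes were simulated there, so this does not check the deposited calls.

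Members, lists and classes were chosen with earlier results of these data known. Genes named were all called members, the 10 highest on each day, the retroelement list, and TRIM28, SETDB1 and called genes of the corepressor list. Untested members and those sharing sequence were named after their values were seen. Alternatives were a stricter q, q within a comparison, a normal p, a fold limit, other pseudocounts, filters, scalings and gaps between clusters.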

Additional observations from a re-analysis of the deposited data

How the results depend on the processing

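No paired analysis was possible because the table holds 1 value per group and none per library; for the same reason leaving out each replicate, a replicate block and a test on library values were not run. With q below 0.01, members called higher and lower were 7 and 2 from day 0 to day 3, 2 and 1 from day 3 to day 5, and 22 from day 0 to day 5 (higher). The shares of all genes tested were then 5.83% and 7.99%, 3.68% and 3.89%, and 8.34% (higher). With a normal p taken from that table's test statistic the members called were 4 and 3, 0 (higher, day 3 to day 5), and 13 and 5. That count of 0 compares with 5 by the deposited q and 2 at an unadjusted normal p below 0.05. Under the adjusted normal p 18 of the 48 members called from day 0 to day 5 kept their call. Over all genes tested that p gave 5.64% higher and 8.91% lower from day 0 to day 3. It gave 3.33% higher from day 3 to day 5, and 7.54% higher and 11.4% lower from day 0 to day 5. With q adjusted within the comparison, 2 members were higher from day 3 to day 5, against 4.98% of all genes tested. With a fold of at least 2, 3 members were lower from day 0 to day 3 and 1 from day 3 to day 5. Of all genes tested, 9.83% and 5.00% were. The cause of these differences was not tested. The median of members from day 0 to day 5 was 0.42 with a pseudocount of 0.1 and 0.43 with none. Scaling the groups without the 10 genes of highest FPKM shifts every ratio by a log2 of 0.15 from day 0 to day 5, 0.14 from day 3 to day 5 and 0.01 from day 0 to day 3. The medians of members then became 0.42 from day 0 to day 5 (all genes tested 0.11) and 0.17 from day 3 to day 5 (all genes 0.07). Tried after seeing the data, that scaling gave 59.5% of members rising at each step (all genes 31.3%), medians of 0.13 in cluster 15 and -0.05 in the 15 members of cluster 16 without a KRAB pattern, and a median of 0.02 in place of -0.11 for these 15 from day 3 to day 5. With a cluster gap of 2 Mb, 6 of 9 clusters held a called member from day 0 to day 5, in place of 10 of 16. Other alternatives kept each count within 1.5 times and each median within 0.1, and no median of all members changed sign. The depth of the libraries is unknown, so what it limits could not be given.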

Other observations

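Chromosome 19 also holds 20 genes of the table with zinc finger names of other kinds or merged symbols, of which 15 were tested. ZFP30 rose from an FPKM of 1.64 on day 0 to 3.28 on day 3 and 5.10 on day 5, and ZFP112 from 1.06 to 2.90 and 3.02. Both were called higher on day 3 and on day 5 than on day 0. ZFP36, a CCCH zinc finger protein that promotes mRNA decay and not a C2H2 gene, fell from 10.2 to 2.06 and stood at 4.23 on day 5, called lower on both days. ZSCAN18 was the highest of these genes, at 21.1, 28.8 and 30.7, and was not called. The imprinted genes PEG3 and ZIM2 were listed at 0 on days 0 and 3 and at 0.00162 and 0.00426 on day 5. ZSCAN4, known from early embryos and a small share of mouse embryonic stem cells, stood at 0.00459, 0.0237 and 0.0231 and could not be tested.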
